A study of Rattus norvegicus with 6 samples.

Results

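The genes of cholesterol synthesis and its control by SREBP2 were examined in rat liver across 6 diets. They were taken from a list of 29 genes, of which 27 had a probe set annotated with that symbol alone among the 29214 probe sets of the array. Hmgcs1 and Srebf1 had none and were not analysed here. Where a gene had several such probe sets, which was the case for Insig1, the one with the highest mean over the 6 arrays was used. All 27 passed the filter on low values, which left 20450 probe sets for the test. The 27 covered 4 of 5 listed enzymes of the mevalonate arm, 4 of the isoprenoid arm, 2 that turn squalene into lanosterol, 8 that turn lanosterol into cholesterol, 4 of 5 parts of the SREBP system, and 5 genes of sterol handling or other SREBP targets.

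Adult male Wistar rats, 30 in all, were adapted for 10 days to a normal protein diet and then had 1 of 6 diets for 5 weeks, with 5 rats per diet. The diets were normal protein with low fat (NP), normal protein with high sucrose and low fat (NP-HS), normal protein with high sucrose and high fat (NP-HS-HF), and the same 3 backgrounds with high protein (HP, HP-HS and HP-HS-HF). Livers were taken 2 h after a meal of fixed energy (87.6 kJ), that is, from fed animals. For each diet, RNA from 5 livers was combined into 1 pool and hybridised to 1 whole-transcript array, so that no diet has a replicate, the spread between rats was not measured, and the number of arrays limits the precision. The source labels call the animals mice, whereas the organism label and the growth protocol name rats, and they are taken as rats here. Each of the 10 hepatocyte markers passed the filter, with a median level of log2 13.12, against 5.58 for 8 markers of intestine, fat tissue and pancreas. The latter list was not low throughout, with a mean of log2 10.68 for Apoa4 and 7.08 for Cela1. Pairwise correlations of the arrays across probe sets lay between 0.9949 and 0.9964.

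The liver makes cholesterol from acetyl-CoA. Acetyl-CoA is built up to mevalonate and on to isoprenoid units, which are joined to squalene, and squalene is closed to lanosterol and trimmed to cholesterol. SREBP2, the product of Srebf2, is a membrane-bound factor of the endoplasmic reticulum that switches on nearly every gene of this route. When membrane sterol is low, SCAP carries SREBP2 to the Golgi, where it is cut and released to the nucleus. When sterol is ample, the INSIG proteins hold SCAP and SREBP2 back, and Insig1 is itself an SREBP target. The genes of the route therefore often vary together in liver.

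For 22 of the 27 genes a RefSeq promoter was at hand (GRCr8, from 250 bases before to 50 bases after the start), and Fdft1, Pmvk, Soat2, Sqle and Stard4 had no entry. SREBPs bind weakly alone and act with NF-Y and Sp1, so their short motifs were searched on both strands beside that of the sterol response element. The NF-Y motif CCAAT was in 18 of the 22 promoters (81.8%), against 37.5% of all 33469 promoters and 37.5% of the 9929 promoters of genes tested here. The Sp1 motif GGGCGG was in 17 of 22 (77.3%), against 33.1% of all promoters and 58.3% of those of genes tested. The sterol response element in a strict form, and its shorter core TCACNCCAC, which every match of the strict form also holds, were in 0 of 22, against 0.269% and 1.12% of all promoters. Among promoters of genes tested the shares were 0.121% and 1.18%. The E-box CACGTG was in 3 of 22 (13.6%), those of Insig1, Sc5d and Scap, against 6.42% of all promoters and 8.94% of those of genes tested. These are matches of letters in 1 window, described without a test.

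The 250 bases before the start are shown for the 3 genes with the largest moderated t for protein among those with an entry (Tm7sf2, Dhcr7 and Insig1) and for the gene that came first in the sucrose comparisons (Idi1), 5′ to 3′ on the gene's strand, with matches of CCAAT or GGGCGG, or of their reverse complements ATTGG and CCGCCC, in capitals. Tm7sf2 lies at chr1:212789542-212789791 on the minus strand, Dhcr7 at chr1:208444184-208444433 on the plus strand, Insig1 at chr4:8057770-8058019 on the minus strand and Idi1 at chr17:66547525-66547774 on the minus strand, all on GRCr8.
Tm7sf2: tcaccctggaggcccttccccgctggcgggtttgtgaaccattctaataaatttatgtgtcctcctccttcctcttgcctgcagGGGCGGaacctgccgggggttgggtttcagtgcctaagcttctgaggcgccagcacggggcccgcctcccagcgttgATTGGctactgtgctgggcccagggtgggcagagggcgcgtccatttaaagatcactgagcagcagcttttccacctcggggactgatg
Dhcr7: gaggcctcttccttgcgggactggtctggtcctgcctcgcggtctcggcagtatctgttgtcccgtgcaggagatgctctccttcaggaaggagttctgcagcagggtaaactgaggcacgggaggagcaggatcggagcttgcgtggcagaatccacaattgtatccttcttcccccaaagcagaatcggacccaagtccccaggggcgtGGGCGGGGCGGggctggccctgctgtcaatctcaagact
Insig1: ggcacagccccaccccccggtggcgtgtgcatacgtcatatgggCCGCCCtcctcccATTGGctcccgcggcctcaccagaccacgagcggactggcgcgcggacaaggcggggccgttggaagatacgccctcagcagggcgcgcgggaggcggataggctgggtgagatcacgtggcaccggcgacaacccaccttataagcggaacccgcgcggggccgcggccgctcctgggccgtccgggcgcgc
Idi1: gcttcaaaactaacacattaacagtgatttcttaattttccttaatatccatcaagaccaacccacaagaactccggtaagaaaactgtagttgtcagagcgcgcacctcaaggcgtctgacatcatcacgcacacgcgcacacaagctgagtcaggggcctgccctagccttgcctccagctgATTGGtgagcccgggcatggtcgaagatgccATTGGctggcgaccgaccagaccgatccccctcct
Dhcr7 shows a pair of overlapping Sp1 matches just before the start and no NF-Y match, and Idi1 shows 2 NF-Y matches and no Sp1 match, whereas Tm7sf2 and Insig1 hold both kinds upstream of the start.

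The most regular feature across the 6 diets was a low level on the normal protein, low fat array. Of the 27 genes, 16 had their lowest value on NP, against 15.8% of all probe sets tested, and 1, the sterol importer Npc1l1, had its highest value there, against 17.1%. The median deviation of the genes from their own mean over the 6 arrays was -0.14 on NP, -0.03 on NP-HS and 0.01 on NP-HS-HF on the log2 scale, and 0.04, 0.04 and 0.06 on HP, HP-HS and HP-HS-HF. NP was the lowest array for 7 of the 8 genes from lanosterol to cholesterol. It was so for 3 of 4 of the isoprenoid arm and 3 of 4 of the SREBP system. For the mevalonate arm it was 0 of 4, which with so few genes lies near the 15.8% of all probe sets tested. HP-HS-HF held the highest value of 8 genes, against 19.6% of all probe sets tested. Each diet being 1 pool on 1 array, the diet and the pool or array cannot be told apart. Over the 6 arrays the genes spanned a median range of 0.34 log2 units, against 0.25 for all probe sets tested, and Sqle and Tm7sf2 spanned more than 1.

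**Figure D1:**
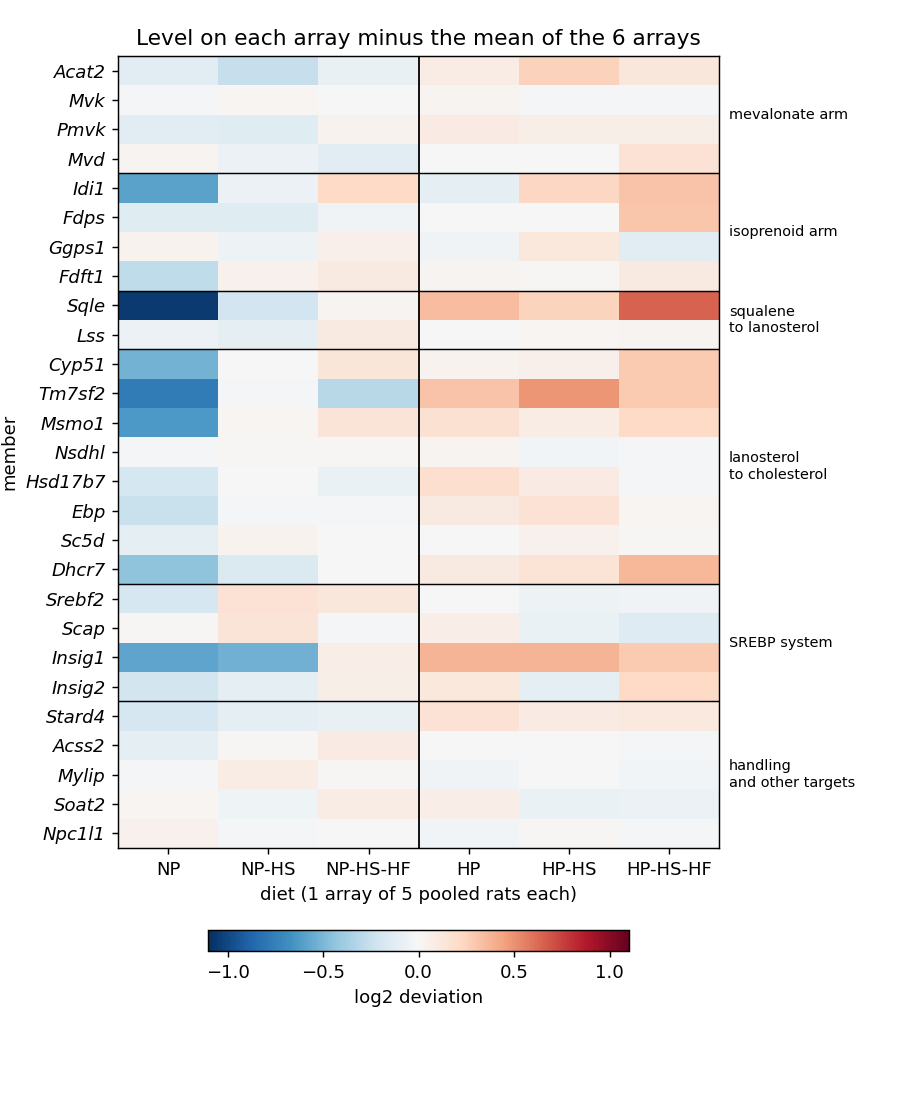
Log2 level of each of the 27 genes (rows, grouped by role) on each of the 6 arrays (columns, normal protein left of the line and high protein right of it) minus that gene's mean over the 6 arrays; blue is below and red above the mean. The NP column is blue for most genes of the lower isoprenoid and sterol steps, deepest for Sqle, while the genes of handling and other targets stay nearer 0.

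High against normal protein was compared with the mean of the 3 paired differences, 1 in each background. No gene passed the test: 0 of 27 had an adjusted p under 0.05 by limma with Benjamini-Hochberg adjustment over all probe sets tested, where 0.044% of them passed. At an unadjusted p under 0.05, 8 genes (Tm7sf2, Dhcr7, Sqle, Insig1, Acat2, Stard4, Idi1 and Fdps) were higher with high protein and 0 lower, against 4.68% and 4.03% of all probe sets tested. The fitted difference was above 0 for 18 genes and below 0 for 9, against 49.4% above 0 in the background, and its median was 0.14 for the genes and -0.0014 for all probe sets tested (log2). It lay within 0.1 of 0 for 12 of the genes. The median became 0.07 without the NP or the HP array, whose absence leaves the other 2 backgrounds to set the value.

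By background, 14 of the 27 genes were higher with high protein in all 3, against 14.6% of all probe sets tested, and 1, the receptor-degrading ligase gene Mylip, was lower in all 3, against 14.9%. At 1.2-fold or more in all 3 backgrounds, Dhcr7, Sqle and Tm7sf2 were higher, against 0.636% of probe sets, and 0 genes were lower, against 0.474%. The 3 HP arrays all lay above the 3 NP arrays for 9 genes, Acat2, Dhcr7, Ebp, Fdps, Insig1, Pmvk, Sqle, Stard4 and Tm7sf2, against 7.35% of probe sets, and all below for 0 genes, against 7.58%. Without both low fat arrays, 15 of 27 genes were higher in both remaining backgrounds and 8 were lower in both, against 28.7% of all probe sets tested in either direction. The lower 8 were Acss2, Fdft1, Mvk, Mylip, Nsdhl, Scap, Soat2 and Srebf2. Over those 4 arrays, high protein lay wholly above normal protein for 11 genes, against 20.5%, and wholly below it for 7, against 20.9%. The lower direction thus held 1 and 0 genes over all 6 arrays (background 14.9% and 7.58%), and 8 and 7 without the low fat pair (28.7% and 20.9%). The background rises as well with fewer arrays, and 8 and 7 of 27 lie near it. In the low fat background the genes' median difference was 0.20, and 23 lay above 0 (all probe sets tested, 49.4%). It was 0.07 with high sucrose, where 18 lay above 0 (48.5%), and 0.04 with sucrose and fat together, where 16 did (51.4%). At 1.5-fold or more, Sqle, Tm7sf2, Insig1 and Msmo1 were higher in the low fat pair (background 0.738%), Insig1 in the high sucrose pair (0.87%), and Sqle and Tm7sf2 in the pair with sucrose and fat (0.836%). In the lower direction 0 genes reached that size in these pairs, against 0.641%, 0.523% and 0.66%.

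Markers of macrophages, a cell type other than hepatocytes in the same tissue, were also set beside protein. All 10 had a fitted protein difference above 0 (median 0.21), against 49.4% of all probe sets tested. But 0 passed the limma test (lowest adjusted p = 0.408), against 0.044%. At an unadjusted p under 0.05, 7 were higher, against 4.68%. The summed linear level of the macrophage markers ran from 3655 to 3979 on the normal protein arrays and from 4078 to 4679 on the high protein arrays. Of single probe sets tested, 7.35% had all HP arrays above all NP arrays. All 10 passed the filter, Marco being the lowest with a mean of log2 6.26. A pass alone does not place a marker clear of the bottom of the scale. Of the 8 markers of intestine, fat tissue and pancreas, 6 passed too, from Adipoq at a mean of log2 5.31 to Apoa4 at 10.68. Bile duct markers (4 of 5 past the filter) summed to between 279 and 303 with normal protein and between 306 and 327 with high protein. The gap was narrow, between 303 on NP and 306 on HP. The 4 tested had a fitted protein difference above 0. Cftr, which failed the filter but is in the sum, was lower with high protein in each background (-0.03, -0.23 and -0.35). Hepatocyte markers overlapped, at 89630 to 91340 against 90410 to 92760. The sums of stellate, endothelial, and lymphocyte and neutrophil markers overlapped between protein levels as well. The part of these cells in the differences below was not tested, and in whole liver a change in the number of cells of a type and a change in RNA per cell cannot be told apart. The macrophage sum was 3655 on NP-HS-HF and 3808 on NP, and the median fitted difference of the macrophage markers was -0.19 for fat added to sucrose.

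**Figure D2:**
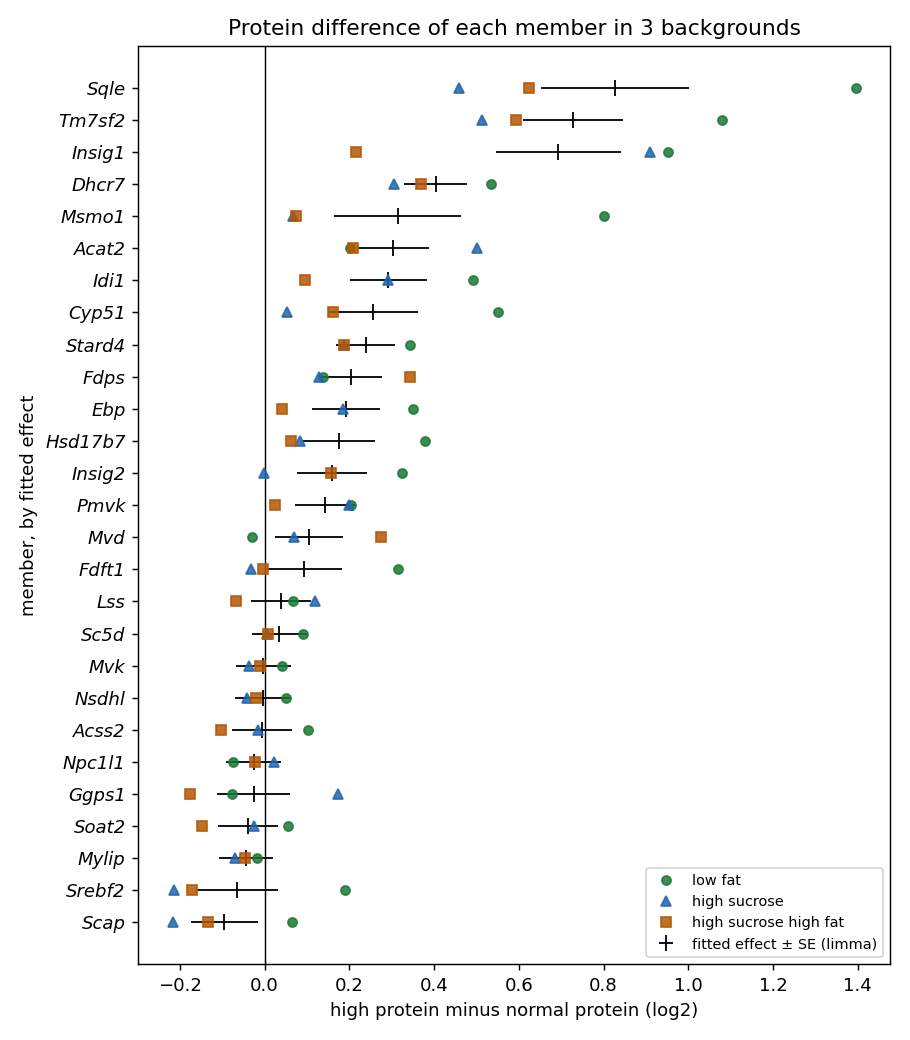
High protein minus normal protein difference (log2) of each of the 27 genes in the low fat, high sucrose and high sucrose high fat backgrounds, with 1 pair of arrays a symbol, and the fitted effect with its SE from limma. Sqle, Tm7sf2, Insig1, Dhcr7 and, narrowly, Acat2 lie above 0.2 in each background. The low fat pair lies farthest to the right for Sqle, Tm7sf2 and Msmo1, and the genes at the foot of the plot crowd around 0.

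At the head of the route, Acat2, the cytosolic thiolase that joins acetyl-CoA units (probe set 10702945), had log2 levels of 7.46 on NP, 7.34 on NP-HS and 7.51 on NP-HS-HF, and of 7.66 on HP, 7.84 on HP-HS and 7.71 on HP-HS-HF. All high protein arrays lay above all normal protein arrays, and NP-HS, not NP, was lowest. The fitted protein difference was 0.30 ± 0.084 SE (1.23-fold, 3 pairs, limma adjusted p = 0.389). Pmvk, phosphomevalonate kinase, was also separated, but narrowly, with 7.44 on NP-HS-HF and 7.47 on HP-HS-HF. Its fitted difference was 0.14 ± 0.071 SE. Mvk, mevalonate kinase, varied by only 0.05 over the 6 arrays and had a protein difference of -0.0025 ± 0.065 SE. Mvd, which decarboxylates mevalonate diphosphate, differed by -0.03 on low fat, 0.07 with sucrose and 0.27 with sucrose plus fat. Of the 4 genes of this arm, 0 had the lowest value on NP, against 15.8% of all probe sets tested. With so few genes that lies near the background and does not set the arm apart.

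In the isoprenoid arm, Idi1, the isomerase that sets up the reactive isoprenoid unit (probe set 10799241), measured 6.08 on NP, 6.61 on NP-HS, 6.89 on NP-HS-HF, 6.57 on HP, 6.90 on HP-HS and 6.98 on HP-HS-HF. NP was the lowest and the protein levels overlapped, HP lying below NP-HS. Its protein difference was 0.49 on low fat, 0.29 with sucrose and 0.09 with sucrose plus fat, with a fitted 0.29 ± 0.090 SE (adjusted p = 0.436). Fdps, farnesyl diphosphate synthase (probe set 10940465), measured 10.02 on NP, 10.02 on NP-HS, 10.12 on NP-HS-HF, 10.16 on HP, 10.15 on HP-HS and 10.46 on HP-HS-HF. It differed from most of the other genes in that HP-HS-HF alone stood apart, and that its protein difference was largest in the background with high fat, at 0.34. The fitted difference of Fdps was 0.20 ± 0.075 SE (adjusted p = 0.509). Fdft1, squalene synthase, lay at 9.75 on NP and between 10.05 and 10.13 on the other 5 arrays, so that its protein difference of 0.32 on low fat stood beside -0.03 and -0.0027 elsewhere. Ggps1, which makes geranylgeranyl diphosphate and leads away from sterols, had a protein difference of -0.03 ± 0.086 SE.

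Sqle, squalene epoxidase, an oxygen-using and rate-controlling step (probe set 10896772), had the widest span of the 27 genes. Its level was 5.81 on NP, 6.66 on NP-HS, 6.89 on NP-HS-HF, 7.21 on HP, 7.11 on HP-HS and 7.52 on HP-HS-HF. All high protein arrays lay above all normal protein arrays, and NP lay well below the other 5. That NP value was close to the median of the markers of intestine, fat tissue and pancreas on the same array (log2 5.63). The low fat difference thus rests on 1 low value. The protein difference was 1.40 on low fat, 0.46 with sucrose and 0.62 with sucrose plus fat, and the fitted 0.83 ± 0.174 SE (1.77-fold) did not pass the test (adjusted p = 0.242). Without the NP or the HP array the fitted difference was 0.54. Lss, which closes the squalene epoxide to lanosterol, varied by 0.20 over the arrays and had a protein difference of 0.04 ± 0.071 SE.

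Among the 8 enzymes from lanosterol to cholesterol, 7 were higher with high protein in all 3 backgrounds, Nsdhl being the exception. Tm7sf2, a sterol C14 reductase (probe set 10728123), measured 7.82 on NP, 8.56 on NP-HS, 8.28 on NP-HS-HF, 8.90 on HP, 9.07 on HP-HS and 8.88 on HP-HS-HF. The high protein arrays lay close together and all above the normal protein arrays, which spanned a wider range. The fitted difference was 0.73 ± 0.118 SE (1.66-fold, adjusted p = 0.145, rank 93 of 20450). Tm7sf2 was the nearest to a call among the probe sets chosen for the 27 genes. The other probe set of Insig1, given below, was nearer (limma adjusted p = 0.124, rank 67). With the test limited to probe sets with 1 gene symbol the adjusted p of Tm7sf2 was 0.0498, within a range of 0.0498 to 0.769 over the 16 alternatives run for it. That setting passed 67 probe sets although fewer were tested, against 9 of 20450 in the main setting.

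Dhcr7, which makes the last reduction to cholesterol (probe set 10712560), measured 7.44 on NP, 7.72 on NP-HS, 7.88 on NP-HS-HF, 7.98 on HP, 8.03 on HP-HS and 8.25 on HP-HS-HF. Every high protein array lay above every normal protein array, and both protein levels had the same order of backgrounds. Its protein difference was the most even of the larger ones, at 0.54 on low fat, 0.31 with sucrose and 0.37 with sucrose plus fat (fitted 0.40 ± 0.074 SE, 1.32-fold, adjusted p = 0.174). Cyp51, lanosterol demethylase (probe set 10853471), measured 9.12 on NP, 9.64 on NP-HS, 9.77 on NP-HS-HF, 9.67 on HP, 9.69 on HP-HS and 9.93 on HP-HS-HF. NP lay well below the other 5 arrays, and the protein difference was 0.55 on low fat against 0.05 and 0.16 in the other backgrounds. The fitted value for Cyp51 was 0.26 ± 0.106 SE (adjusted p = 0.576), and 0.11 without the NP or the HP array.

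Msmo1, the C4 methyl oxidase, followed Cyp51, with 8.63 on NP and between 9.28 and 9.48 on the other 5 arrays. It is singled out here because of that gap, a choice made after its values were seen. Its protein difference was 0.80 on low fat and 0.07 in both other backgrounds (fitted 0.31 ± 0.151 SE, adjusted p = 0.65), and 0.07 without either low fat array. Hsd17b7, a sterol ketoreductase, showed 0.38, 0.08 and 0.06 in the same order of backgrounds, and Ebp, the sterol isomerase, 0.35, 0.19 and 0.04. Sc5d, the C5 desaturase, varied by 0.14 over all arrays and Nsdhl, a sterol dehydrogenase of the C4 demethylation complex, by 0.06. The larger differences of this group thus lay in 4 enzymes, Tm7sf2, Dhcr7, Cyp51 and Msmo1, and not evenly along the route.

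**Figure D3:**
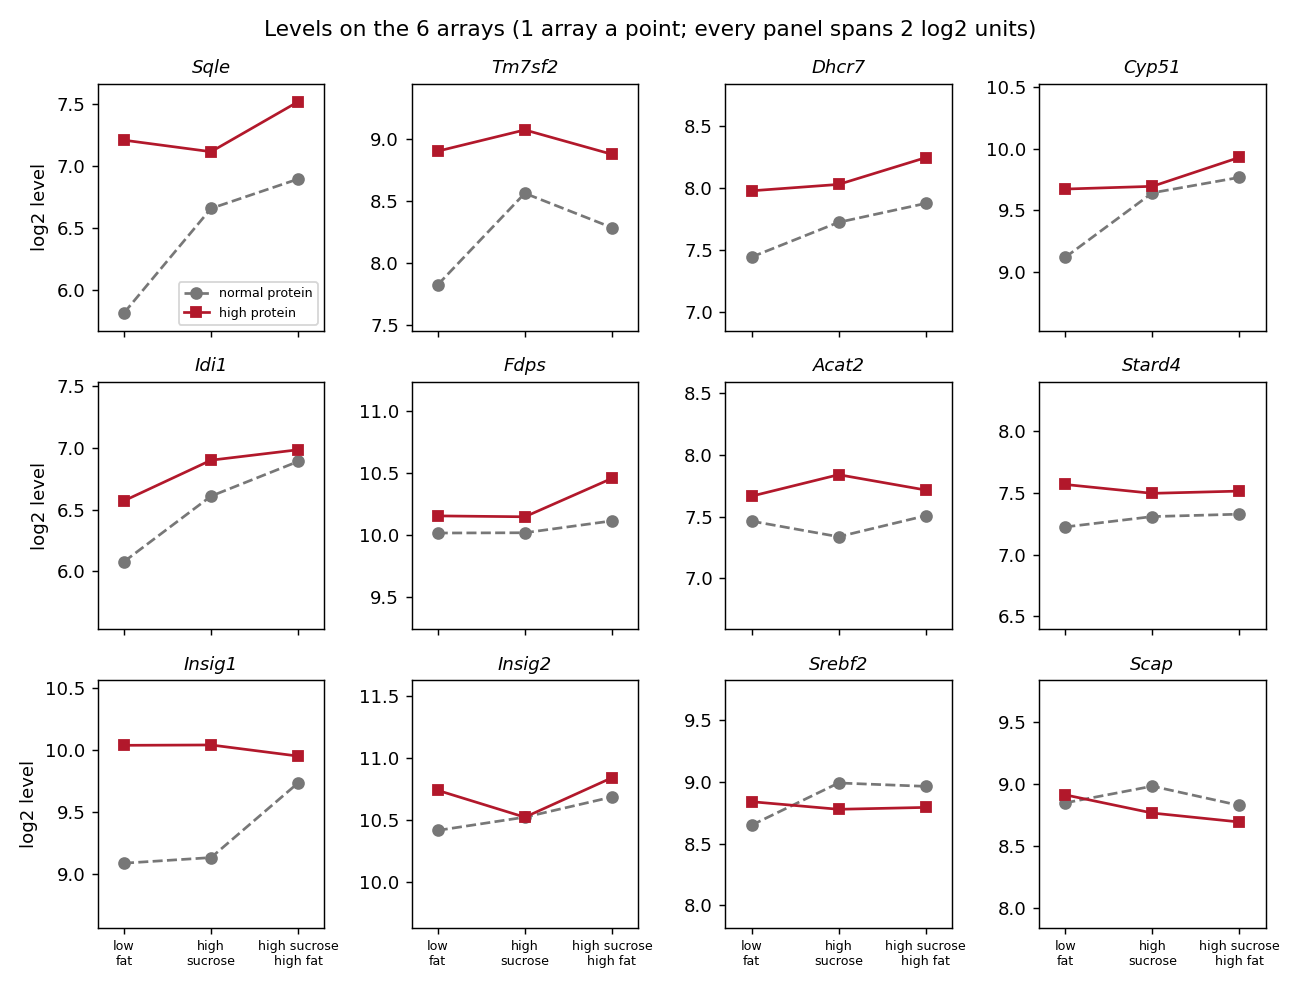
Log2 level of 12 genes in the 3 backgrounds (horizontal axis) at normal protein (grey circles, dashed) and high protein (red squares, solid), 1 array a point, each panel spanning 2 log2 units. Levels of Sqle, Tm7sf2, Dhcr7, Fdps, Acat2, Stard4 and Insig1 lie higher with high protein on every array, while the lines of Srebf2 and Scap cross.

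In the SREBP system, Insig1, the sterol-regulated retention factor (probe set 10861986), was at 9.08 on NP, 9.13 on NP-HS and 9.73 on NP-HS-HF, and at 10.04 on HP, 10.04 on HP-HS and 9.95 on HP-HS-HF. The high protein arrays were level and all above the normal protein arrays, and among the latter NP and NP-HS were low alike, unlike Cyp51 and Msmo1, for which NP alone was low. The fitted protein difference was 0.69 ± 0.148 SE (1.62-fold, adjusted p = 0.247), with 0.95 on low fat, 0.91 with sucrose and 0.22 with sucrose plus fat. Leaving out either high sucrose high fat array removes the pair with its smallest difference, 0.22. The fitted difference of Insig1 was then 0.93 and passed the test (limma adjusted p = 0.015, within a range of 0.015 to 0.789 over the 16 alternatives run for it). In that setting 48 probe sets passed, against 9 in the main setting. The other probe set of Insig1 (10859880) gave 0.89, 0.92 and 0.42 in the same order, and a fitted 0.74 ± 0.111 SE (adjusted p = 0.124). Both probe sets thus placed the smallest protein difference with sucrose plus fat.

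Insig2, the second retention factor (probe set 10767175), measured 10.42 on NP, 10.52 on NP-HS, 10.69 on NP-HS-HF, 10.74 on HP, 10.52 on HP-HS and 10.84 on HP-HS-HF. The protein levels overlapped, with values equal to 2 decimals in the high sucrose background, and the fitted difference was 0.16 ± 0.082 SE (adjusted p = 0.677). Srebf2 itself (probe set 10898091) measured 8.65 on NP, 8.99 on NP-HS, 8.96 on NP-HS-HF, 8.84 on HP, 8.78 on HP-HS and 8.79 on HP-HS-HF. NP was again the lowest array, but the 3 high protein arrays lay below NP-HS and NP-HS-HF, so that the protein difference was 0.19 on low fat and -0.21 and -0.17 in the other backgrounds. Its fitted protein difference was -0.06 ± 0.096 SE. Scap, the escort of SREBP2 (probe set 10913640), measured 8.85 on NP, 8.98 on NP-HS, 8.83 on NP-HS-HF, 8.91 on HP, 8.765 on HP-HS and 8.69 on HP-HS-HF, with a fitted difference of -0.10 ± 0.079 SE (adjusted p = 0.811). Thus the transcripts of the factor and its escort did not share the order of the arrays seen for Sqle, Tm7sf2 or Insig1, as a description of single arrays with no test.

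Of the genes of sterol handling and other targets, Stard4, a sterol carrier of the cytosol (probe set 10803681), measured 7.22 on NP, 7.31 on NP-HS, 7.33 on NP-HS-HF, 7.57 on HP, 7.50 on HP-HS and 7.51 on HP-HS-HF. The protein levels did not overlap, with 0.34, 0.19 and 0.19 in the 3 backgrounds and a fitted 0.24 ± 0.070 SE (adjusted p = 0.411). The other 4 genes lay close to 0 for protein. They were Acss2, a cytosolic acetyl-CoA synthetase (-0.01 ± 0.072 SE), Mylip (-0.04 ± 0.064 SE), Soat2, which esterifies cholesterol in liver and intestine (-0.04 ± 0.072 SE), and Npc1l1, a sterol importer that rat liver expresses little (-0.03 ± 0.065 SE). The 5 genes of this group had a median protein difference of -0.03.

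The sucrose and fat comparisons were fitted over both protein levels, with 2 paired differences each. For high sucrose against low fat, 0 of 27 genes passed the limma test (background 0%), and 2, Idi1 and Tm7sf2, were higher at an unadjusted p under 0.05, with 0 lower, against 1.47% and 1.55% of all probe sets tested. For high sucrose with high fat against high sucrose, 0 passed (background 0%), and 0 were higher or lower at an unadjusted p under 0.05, against 2.5% and 2.45%. For high sucrose with high fat against low fat, 0 passed (background 0%), and 4, Idi1, Dhcr7, Cyp51 and Sqle, were higher at an unadjusted p under 0.05, with 0 lower, against 2.57% and 2.61%. The median fitted difference of the 27 genes was 0.03, 0.03 and 0.07 in these comparisons, against -0.0001, -0.0026 and -0.0027 for all probe sets tested. It was above 0 for 17, 17 and 20 genes, against 49.9%, 48.9% and 48.8%. These comparisons share their low fat, high sucrose or high fat arrays in pairs, so they are not separate results.

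Idi1 had the largest moderated t of the genes for sucrose with fat against low fat, at 0.61 ± 0.111 SE (1.53-fold, adjusted p = 0.76, rank 29 of 20450), with 0.81 at normal and 0.41 at high protein. Its sucrose difference was 0.43 ± 0.111 SE (adjusted p = 1), with 0.53 at normal and 0.33 at high protein. Idi1 was thus higher with sucrose at both protein levels, which the values of Sqle and Msmo1 were not. Dhcr7 differed by 0.35 ± 0.091 SE with sucrose and fat (adjusted p = 0.875), Cyp51 by 0.45 ± 0.130 SE and Sqle by 0.70 ± 0.213 SE (both adjusted p = 0.877). For fat added to sucrose, Insig2 came first at 0.24 ± 0.101 SE (adjusted p = 0.995), followed by Fdps at 0.20 ± 0.091 SE, Dhcr7 at 0.18 ± 0.091 SE and Idi1 at 0.18 ± 0.111 SE. Tm7sf2 was 0.46 ± 0.144 SE with sucrose and -0.24 ± 0.144 SE with fat added to it.

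Set out by protein level, where each difference is that of 2 arrays and has no test, the differences from low fat were larger at normal protein. High sucrose with high fat minus low fat had a median of 0.15 over the 27 genes at normal protein, with 24 above 0, and of 0.01 at high protein, with 14 above 0, where the background was 49.1% and 50.1%. At 1.5-fold or more stood Sqle, Idi1, Msmo1, Insig1 and Cyp51 at normal protein (higher, against 0.533% of all probe sets tested) and 0 genes at high protein (against 0.641%), while 0 were lower by as much at normal or high protein (against 0.626% and 0.548%). High sucrose minus low fat was above 0 for 20 genes at normal and 13 at high protein (background 50.3% and 49%). Its median was 0.11 at normal protein, with Sqle (0.84), Tm7sf2 (0.74) and Msmo1 (0.65) at 1.5-fold or more (against 0.367%), and of -0.01 at high protein, where 0 genes reached it (against 0.518%), and 0 were lower by as much at either level (against 0.499% and 0.372%). The differences at normal protein all use the NP array, as does the protein difference on low fat, so that these values restate the low level of NP and are no further support for it.

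The change of the response with protein can be read per gene. The sucrose difference at normal protein exceeded that at high protein by 0.94 for Sqle, 0.73 for Msmo1, 0.57 for Tm7sf2, 0.50 for Cyp51 and 0.40 for Srebf2. Insig1 differed by only 0.04 here, but by 0.69 for fat added to sucrose, with 0.60 at normal and -0.09 at high protein (at 1.5-fold or more at normal protein, against 0.445% of all probe sets tested). For fat added to sucrose 18 genes lay above 0 at normal protein (48.5%) and 15 at high protein (50.2%). At high protein 0 genes were higher or lower by 1.5-fold (against 0.68% and 0.592%), and 0 were lower by as much at normal protein (0.489%). Fdps went the other way, its fat difference being 0.10 at normal and 0.31 at high protein. So did many of the genes, among them Mvd, Sqle, Insig2 and Cyp51, whereas Ggps1, Acat2 and Idi1 went with Insig1. The gap of Insig1 for fat was thus not shared by the genes as a group. An interaction leaves no residual degrees of freedom in this design and was not tested.

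**Figure D4:**
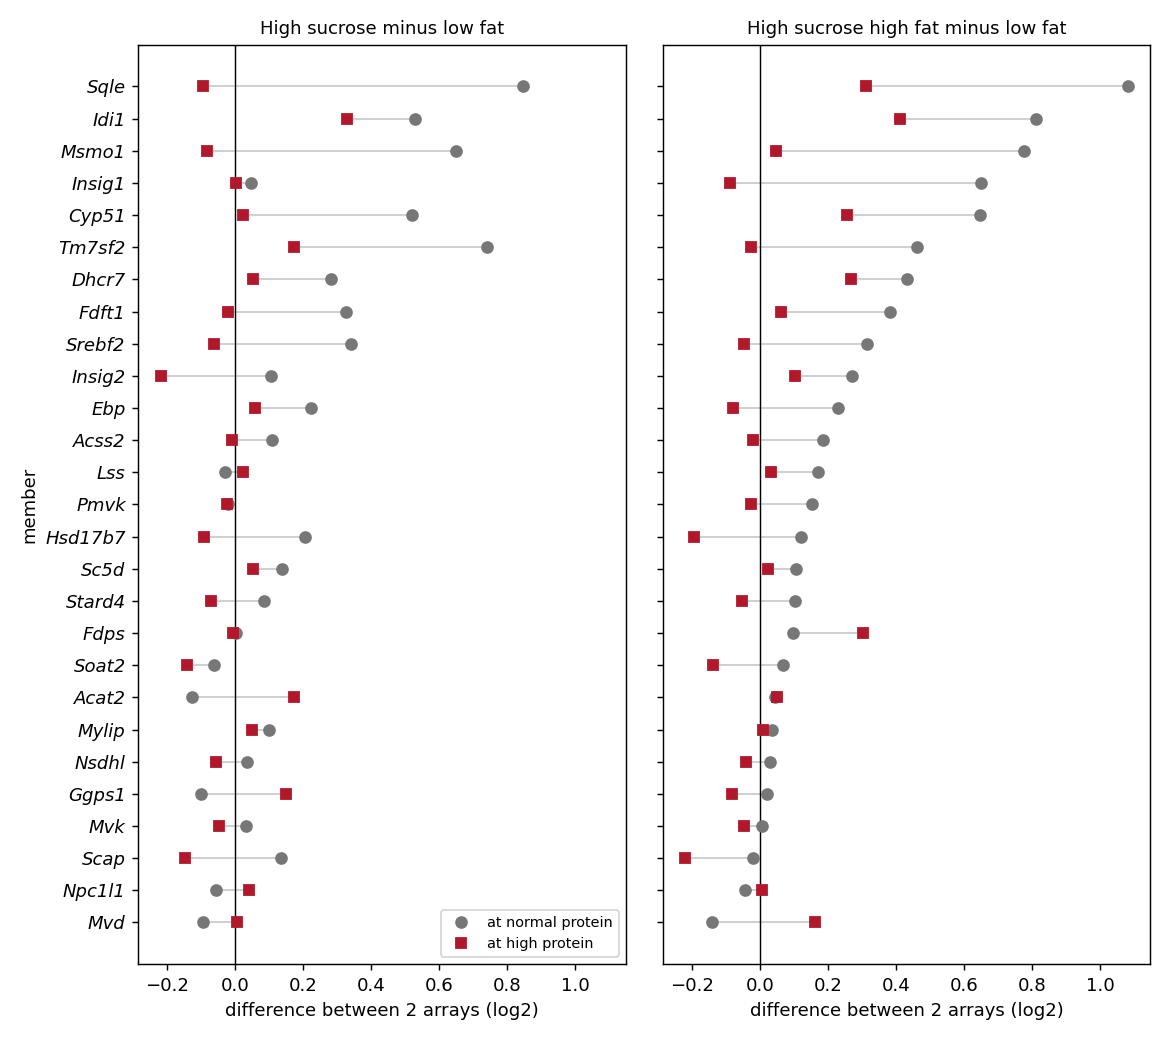
Difference between 2 arrays (log2) for each of the 27 genes, high sucrose minus low fat on the left and high sucrose high fat minus low fat on the right, at normal protein (grey circles) and high protein (red squares); a line joins the values of a gene. Sqle, Msmo1 and Cyp51 lie far to the right at normal protein and nearer to 0 at high protein, while Fdps and Mvd in the right panel have the opposite order.

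Genes beside the route were compared as a listed set of 50, of which 42 were measured and 41 tested. They cover processing and turnover of SREBP, use of isoprenoids, sterol transport and esters, the LXR receptors and partners, and other sterol enzymes. For protein, 0 passed the limma test over all probe sets, 3 were higher and 1 lower at an unadjusted p under 0.05 (background 4.68% and 4.03%), and their median was -0.02. The 4 largest moderated t values were those of Nceh1, which hydrolyses cholesterol esters (0.77 ± 0.108 SE, adjusted p = 0.115), Nr1h4, the bile acid receptor FXR (-0.26 ± 0.079 SE), Ube2g2, a ubiquitin-conjugating enzyme of endoplasmic reticulum protein disposal (0.22 ± 0.072 SE), and Rabggtb, a subunit of a geranylgeranyl transferase (0.19 ± 0.072 SE). Nceh1 measured 8.29 on NP, 7.91 on NP-HS, 8.38 on NP-HS-HF, 8.75 on HP, 8.88 on HP-HS and 9.24 on HP-HS-HF, without overlap between protein levels and with NP-HS lowest. The median of the 10 tested genes of SREBP processing was -0.01, that of 9 isoprenoid users -0.04 and that of 13 genes of sterol transport and esters 0.04, against 0.14 for the 27 genes.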

How the data were processed

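Liver RNA pools of 5 rats per diet (1500 ng per rat, integrity number at least 7.0, per the labels' protocols) were labelled from 100 ng and hybridised to 6 Affymetrix whole-transcript arrays. The deposited values are log2 expression per probe set, summarised by RMA per the submitters' processing notes. Its version and the build used are unstated in the sources used here. Gene names came from the platform annotation (15310 probe sets with 1 symbol, 323 with several, 13581 not listed and unnamed here). Diet composition was not used here.

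Probe sets with a mean above the 30th percentile (log2 5.14) were fitted with limma 3.58.1 in R 4.3.3, with terms for protein level and background on all 6 arrays. Residual degrees of freedom were 2, with 4.37 more from the eBayes prior. The error reflects how unevenly an effect repeats across the other factor, so p-values speak of the spread among these pools alone. A call needed an adjusted p (Benjamini-Hochberg, over 20450 probe sets) under 0.05. The model was tested on simulated data. The members, lists and rules were chosen with earlier results of these data known. Values on every array are given for the 8 genes with the largest moderated t for protein, the 4 for each other effect and the SREBP system. Alternatives changed the filter, the variance model, the scaling, the probe set rule and the arrays used. Promoters are RefSeq's, matched by symbol.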

Additional observations from a re-analysis of the deposited data

How the results depend on the processing

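No diet has a replicate array, so the calls rest on 2 residual degrees of freedom. Rescaling kept the median protein difference of the 27 genes, at 0.141 with arrays centred on their medians and 0.139 after quantile normalization. Single arrays weighed more. Leaving out 1 array at a time gave a median between 0.073 and 0.157 for protein, between -0.025 and 0.114 for sucrose, and between -0.019 and 0.095 for fat. The count of genes past the test for protein ran from 0 to 1, the 1 being Insig1 without either high sucrose high fat array, and it was 1, Tm7sf2, with probe sets of 1 symbol only. The cause was not tested.

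Over all probe sets, the count past the test for protein was 9 in the main setting, 3 with no filter, 51 with an intensity trend, 0 with an ordinary t statistic, 16 with centred arrays, 67 with probe sets of 1 symbol only, 0 without both low fat arrays (an alternative chosen after seeing the data), and 0 to 48 with 1 array left out. For sucrose it was 0, 3 with the 4 arrays of the contrast only, and 0 to 3 with 1 array left out. For fat it was 0, and 0 to 17, and for sucrose and fat 0, and 0 to 12, with 1 array left out. 

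Genes near 0 for protein changed sign. Acss2 became 0.0046 and Mvk 0.0025 after quantile normalization, and Fdft1 became -0.017 without both low fat arrays. With 1 array left out the ranges were -0.017 to 0.157 for Fdft1, -0.0002 to 0.094 for Lss, -0.024 to 0.015 for Mvk, -0.032 to 0.015 for Nsdhl, -0.192 to 0.0098 for Srebf2, -0.0599 to 0.0428 for Acss2, -0.126 to 0.049 for Ggps1 and -0.087 to 0.016 for Soat2.

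Counts at a fold between 2 arrays depend on the fold by construction. At 1.2-fold in place of 1.5-fold, genes were higher by that much as follows, with the share of all probe sets tested in parentheses. Between HP and NP there were 12 in place of 4 (6.25%), between HP-HS and NP-HS 6 in place of 1 (5.98%), and between HP-HS-HF and NP-HS-HF 5 in place of 2 (7.76%). At normal protein there were 8 in place of 3 for sucrose (4.58%) and 10 in place of 5 for sucrose and fat (5.3%). For fat at normal protein the count was 3 in place of 1, of which 2 were higher (4.67%) and 1, Tm7sf2, lower (5.04%). At high protein there were 1, 3 and 4 in place of 0 for sucrose, fat, and sucrose and fat (4.52%, 6.02% and 6.21%). In the other pairs 0 genes were lower by 1.2-fold. At 2-fold, 2 genes were higher between HP and NP (0.112%), 1 between NP-HS-HF and NP (0.0489%), and 0 between HP-HS and NP-HS (0.181%), HP-HS-HF and NP-HS-HF (0.152%), NP-HS and NP (0.0342%), and NP-HS-HF and NP-HS (0.0636%).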
